A study of Homo sapiens with 6 samples.

Results

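The outer kinetochore is the protein assembly on each mitotic chromosome that binds spindle microtubules. Its 10 genes described here were chosen by name: NDC80, NUF2, SPC24 and SPC25 of the NDC80 complex, the scaffold gene KNL1, DSN1 and MIS12 of the MIS12 complex, and SKA1, SKA2 and SKA3 of the SKA complex. All 10 were on the array, with 21 probe sets that carry a member as their 1 gene symbol, out of 18244 genes and 49395 probe sets in all. In A549 cells with MRPL35 knocked down, 9 of the 10 were lower than in control cells, 8 of them by more than 2-fold, and 0 were higher. SKA1 was 5.48-fold lower, SKA2 was 1.85-fold lower, and MIS12, at 1.23-fold lower, did not pass the test.

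The study used A549, a human lung adenocarcinoma cell line kept in culture. KD cells (3 arrays) carried a lentivirus with an shRNA aimed at MRPL35, and NC cells (3 arrays) carried one with a control hairpin, so both groups were infected. MRPL35 is a protein of the mitochondrial ribosome, built into its large subunit. The question was how cells of this cancer type grow and survive without it. How many hairpin sequences were used, how long after infection the RNA was taken and whether the samples of a group were separate cultures are not given in the labels, so a p-value here measures the spread among these samples alone, and part of that spread may be technical. The values are log2 probe-set values, and the small number of arrays limits their precision.

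At the kinetochore, the MIS12 complex sits on the inner centromere proteins and holds KNL1 and the NDC80 complex, which together form the KMN network. The NDC80 complex is a long rod: NDC80 and NUF2 carry the end that grips the microtubule, and SPC24 and SPC25 carry the end that docks on the MIS12 complex. KNL1 recruits some of the spindle checkpoint proteins, and the SKA complex strengthens the grip of the NDC80 complex on the microtubule. Many genes of this machinery are transcribed mainly in late cell cycle phases. In a bulk sample, fewer cells in those phases and less RNA per cell cannot be told apart.

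The target gene was lower in every KD array. MRPL35 gave 6.49, 6.44 and 6.56 in the KD arrays, against 8.16, 8.05 and 8.36 in the NC arrays, which is 3.23-fold lower (limma, adjusted p = 3.77e-06). These are values of its brightest probe set, and the other 3 were 3.94-fold, 2.59-fold and 1.34-fold lower, all called. NC replicate 2 stood apart from the other 5 arrays on the second principal component, which carried 11.8% of the variance. By the brightest probe set of each gene, it had the lowest value of the 3 NC arrays for all 10 kinetochore genes. The same held for 37.6% of all genes and 61.4% of the genes called lower. In some other probe sets it was not the lowest, as in the second of SKA2, which read 7.77, 7.96 and 7.78 in NC replicates 1 to 3. Without NC replicate 2, 10 of the 10 genes passed the test as lower, and their median log2 change was -2.10 in place of -1.98. Over all genes 17.6% were called higher in KD, which is the share to set beside the marker counts that follow. Epithelial markers were present at a mean level of 10.7 to 10.8 over the KD arrays and 10.3 over the NC arrays. Of these 7 markers 4 were higher in KD and 0 lower. Their brightest, KRT18, averaged 13.9 in KD and 13.4 in NC, and their dimmest, EPCAM, 6.08 and 5.87. CDH1 changed most among them, at 1.31 ± 0.12. Alveolar type 2 markers averaged 5.76 to 5.81 in KD and 5.50 to 5.76 in NC, with 1 of 7 higher, ABCA3 (8.86 in KD and 7.73 in NC). Leukocyte markers averaged 4.99 to 5.06 in KD and 4.77 to 5.03 in NC, with 1 of 4 higher, CD14 (a change of 0.60 ± 0.11). The brightest of them, CD68, averaged 7.03 in KD and 6.88 in NC, and PTPRC was near the table's minimum, at 2.47 in KD and 2.57 in NC. Of 7 fibroblast and endothelial markers 0 passed, and the brightest, PDGFRB, averaged 5.84 in KD and 5.64 in NC. The part of these markers in the kinetochore changes was not tested.

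The sequences around the starts of these genes are shown first, because 9 of the 10 were lower and their promoters can be compared with the size of the change. RefSeq promoter windows of 300 bases (GRCh38.p14, 250 before the start and 50 after it) were found for 9 of the 10 genes, with 2 annotated starts for MIS12. The windows were searched on both strands for TTTGAA, the core of the cell cycle genes homology region (CHR), an element through which repressor and activator complexes act on many mitotic genes. The core was present in 5 genes, NDC80, NUF2, SPC25, SKA1 and SKA3, against 15.2% of all 35116 windows in the table. Each is printed in the direction of its gene with up to 12 bases on each side, and capitals mark the core or its reverse complement.
NDC80: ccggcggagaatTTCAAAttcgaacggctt
NUF2: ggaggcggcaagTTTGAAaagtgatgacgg
SPC25: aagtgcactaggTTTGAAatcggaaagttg
SKA1: cgcggcgggcggTTTGAAttttgcttac
SKA3: ccggcgccgagaTTCAAActagtggcggga

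These stretches lie at chr18:2571542-2571571 on the plus strand for NDC80, chr1:163321958-163321987 on the plus strand for NUF2 and chr2:168890416-168890445 on the minus strand for SPC25. Those of SKA1 and SKA3 lie at chr18:50375068-50375095 on the plus strand and chr13:21176538-21176567 on the minus strand. In NDC80, SPC25 and SKA3 the core begins at base -3 from the annotated start and runs across it. In NUF2 it begins at base 17 and in SKA1 at base 35 of the transcript. SPC25 has another copy at base -247.

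SPC24, DSN1, MIS12 and SKA2 had no TTTGAA in their windows. SPC24 and DSN1 were among the genes that fell by more than 2-fold, and MIS12 and SKA2 were the pair that changed least. The windows were also searched on both strands for the CCAAT box (CCAAT), which the factor NF-Y binds and which stood in 34.6% of all windows, and for 3 E2F-type strings (TTTGGCGC, TTTCGCGC and GGCGGGAA), of which at least 1 stood in 4.24%. No match to 1 of the 3 motif types overlapped a match to another in these windows. SKA2 had 5 CCAAT boxes, SPC24 had 3, SPC25 had 2, and the windows of the MIS12 starts had 2 and 3. The MIS12 windows overlap, and the box at -42 from the first start is the same as that at -234 from the second. E2F-type strings began at -73 in SKA1 and at -21 in SPC25, and at -99 from the second MIS12 start. The DSN1 window held no match to any of the 3 motif types, and DSN1 was 3.26-fold lower. The 100 bases before the start are printed for the most lowered of the genes without a CHR core and for the pair that changed least, with CCAAT boxes on the printed strand in capitals.
SPC24: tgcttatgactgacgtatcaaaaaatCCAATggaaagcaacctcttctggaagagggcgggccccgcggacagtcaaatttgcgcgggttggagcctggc
MIS12: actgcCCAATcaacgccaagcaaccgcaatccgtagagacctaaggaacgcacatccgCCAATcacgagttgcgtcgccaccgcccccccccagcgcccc
SKA2: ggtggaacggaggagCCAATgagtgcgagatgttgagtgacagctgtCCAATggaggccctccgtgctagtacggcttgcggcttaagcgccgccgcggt

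These are chr19:11155783-11155882 on the minus strand, chr17:5486274-5486373 on the plus strand and chr17:59155187-59155286 on the minus strand. Over the 14494 tested genes with a window, 18.9% of the 2313 genes with a CHR core were called lower in KD and 16.4% of the 12181 genes without one. For E2F-type strings the shares were 28.6% of 1048 genes with one and 15.9% of 13446 without. For the CCAAT box they were 17.9% of 6146 genes with one and 16% of 8348 without. These shares are descriptions with no test, and a match in a window is not shown to be a bound site.

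**Figure D1:**
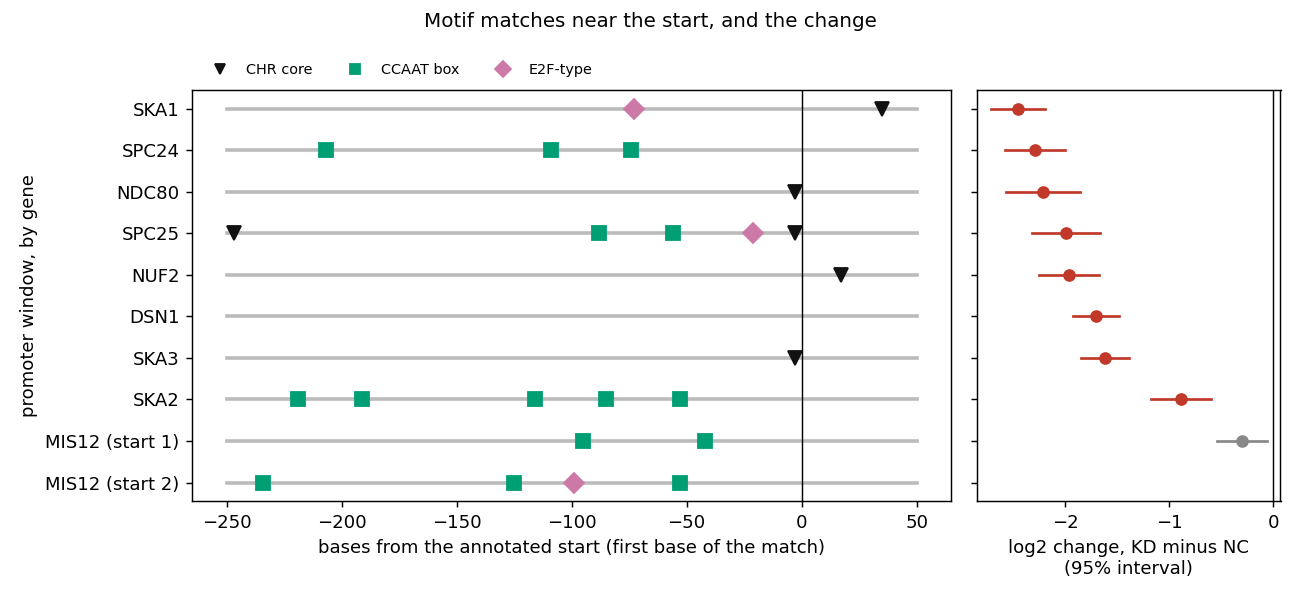
Left, matches to the 3 motif types in the promoter windows, by distance in bases of the match's first base from the annotated start (0), with genes ordered by change. Right, the log2 change of each gene, KD minus NC, with its 95% interval (red, adjusted p under 0.05). CHR cores (triangles) begin between -3 and 35 in 5 genes, and SPC25 has another at -247. The MIS12 windows overlap and share a CCAAT box.

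The subunits of the NDC80 complex fell together. NDC80 and NUF2 are the microtubule-gripping pair, and SPC24 and SPC25 the docking pair. The brightest probe set of NDC80 read 5.12, 5.03 and 4.89 in KD replicates 1 to 3, against 7.46, 6.84 and 7.38 in NC replicates 1 to 3. NUF2 read 5.11, 4.78 and 5.01 in KD, against 7.08, 6.69 and 7.01 in NC. The KD arrays lay below the NC arrays for both genes, with the smallest gap to NC replicate 2. NDC80 changed by -2.22 ± 0.16 (log2, KD minus NC ± standard error, n = 3 per group), which is 4.65-fold lower (limma, adjusted p = 1.21e-05). NUF2 changed by -1.96 ± 0.13, or 3.89-fold lower (limma, adjusted p = 7.83e-06).

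SPC24 read 4.89, 4.89 and 5.18 in KD, against 7.32, 7.05 and 7.46 in NC. SPC25 read 4.66, 4.29 and 4.20 in KD, against 6.53, 6.15 and 6.47 in NC. No KD value reached an NC value in either gene, and NC replicate 2 was again the lowest control. The changes were -2.29 ± 0.13 for SPC24 (4.89-fold lower, limma adjusted p = 3.42e-06) and -2.00 ± 0.14 for SPC25 (3.99-fold lower, limma adjusted p = 1.39e-05). By their brightest probe sets, the 4 subunits thus spanned -1.96 to -2.29, and their 95% intervals overlapped. The other SPC24 probe sets changed by less, between -0.77 and -1.48.

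KNL1, which carries docking sites for checkpoint proteins, read 6.69, 6.09 and 6.45 in KD, against 8.65, 8.36 and 8.56 in NC. Its KD arrays varied more (SD 0.31) than its NC arrays (SD 0.15), and the groups did not overlap. KNL1 changed by -2.12 ± 0.15, or 4.33-fold lower (limma, adjusted p = 1.30e-05).

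The MIS12 complex, which joins the centromere to the rest of the KMN network, was uneven. DSN1, the subunit whose phosphorylation by Aurora B helps the complex bind the inner centromere, read 7.08, 7.19 and 6.99 in KD, against 8.93, 8.67 and 8.77 in NC. It changed by -1.71 ± 0.096, or 3.26-fold lower (limma, adjusted p = 3.62e-06). MIS12 itself read 7.70, 7.72 and 7.51 in KD, against 8.07, 7.76 and 8.003 in NC. KD replicate 2 lay just under NC replicate 2, so the groups were apart by little. The MIS12 change of -0.30 ± 0.11 had a 95% interval of -0.54 to -0.065 and did not pass the test (limma, adjusted p = 0.0545). It passed without NC replicate 2, at -0.40 (limma, adjusted p = 0.00731), while its adjusted p over all alternative settings ranged from 0.00644 to 0.533. The largest came from treat against 0.2, which tests for a change beyond 0.2 and so asks a different question from the other settings.

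The remaining subunits of the MIS12 complex are PMF1 and NSL1. As means ± SD of 3 arrays, PMF1 stood at 7.54 ± 0.084 in KD and 8.15 ± 0.067 in NC, a change of -0.61 ± 0.082 (limma, adjusted p = 0.000446). NSL1 averaged 8.58 ± 0.14 in KD and 8.88 ± 0.069 in NC, a change of -0.30 ± 0.094 (limma, adjusted p = 0.0347). The NSL1 call was lost without KD replicate 2 (adjusted p = 0.128), KD replicate 3 (0.140), NC replicate 1 (0.0891) or NC replicate 3 (0.103). ZWINT, which binds KNL1 and links it to the RZZ complex, averaged 9.01 ± 0.091 in KD and 10.68 ± 0.027 in NC, a change of -1.66 ± 0.080 or 3.17-fold lower.

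By the brightest probe set of each gene, the SKA complex showed a graded set of changes. SKA1, which holds its microtubule-binding domain, read 5.55, 5.49 and 5.15 in KD, against 7.92, 7.77 and 7.86 in NC. SKA3, which binds the NDC80 complex after phosphorylation, read 5.49, 5.26 and 5.36 in KD, against 7.06, 6.83 and 7.08 in NC. SKA2, the smallest core subunit, read 7.42, 7.62 and 7.51 in KD, against 8.69, 8.25 and 8.28 in NC. For all 3 genes the groups did not overlap, and the gap was narrowest for SKA2. SKA1 changed by -2.45 ± 0.11 (limma, adjusted p = 1.72e-06), SKA3 by -1.62 ± 0.10, 3.07-fold lower (limma, adjusted p = 6.25e-06), and SKA2 by -0.89 ± 0.13 (limma, adjusted p = 0.000574).

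**Figure D2:**
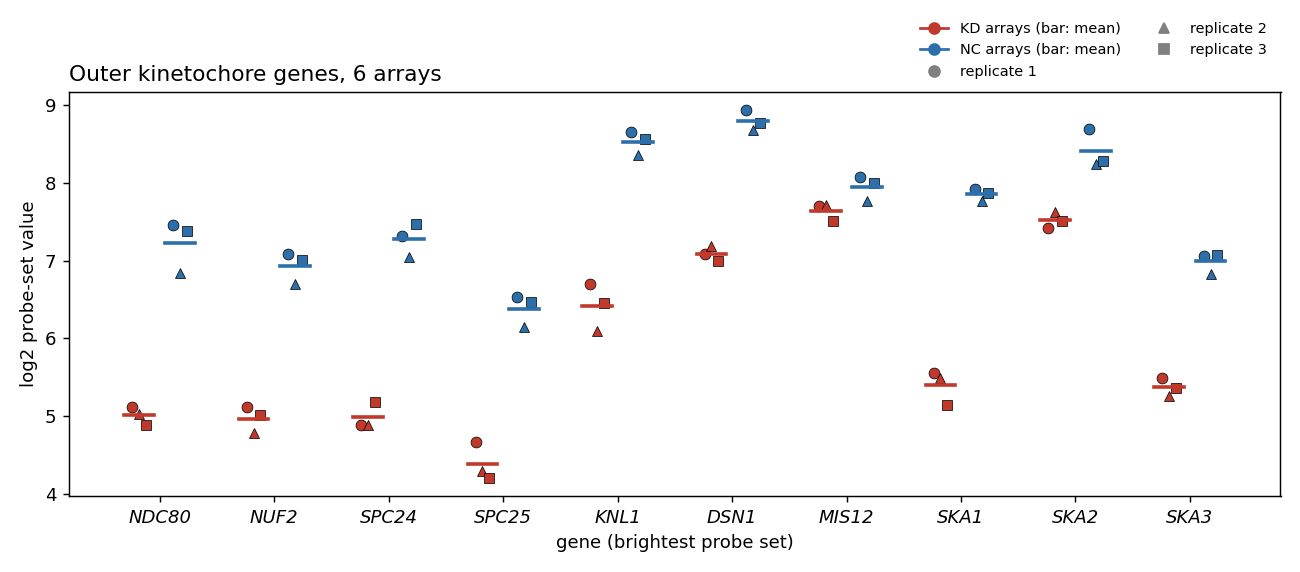
Log2 values of the brightest probe set of each of the 10 genes on each array, KD (red) left of NC (blue), with a marker shape per replicate number and a bar at the group mean. The KD arrays lie below the NC arrays for every gene, by a wide gap in all but MIS12 and, to a lesser degree, SKA2, and the blue triangle (NC replicate 2) is the lowest control for each gene.

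Read against all genes, the count of 9 of 10 lower compares with 15.9% of 18244 genes called lower by the same rule (33.5% were called in either direction), and the 8 changes of at least 2-fold with 3.09%. Groups were apart, with all KD arrays below all NC arrays, for 10 of 10 genes, against 21.5% of all genes. The median change over the 10 was -1.98, against -0.018 over all genes. Without KD replicate 3, SPC24 (-2.39) changed more than SKA1 (-2.33). Ordered from the most lowered of the 18244 genes with all arrays, SKA1 was at place 10, SPC24 at 21, NDC80 at 28 and KNL1 at 41. SPC25 was at place 57, NUF2 at 63, DSN1 at 137 and SKA3 at 169, while SKA2 was at 699 and MIS12 at 2852. The order from SKA1 down to SKA3 has neighbours whose intervals overlap, whereas SKA2 lies outside the intervals of the 8 genes above it.

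The difference in change between subunits of a complex was computed from within-array differences between the values of their brightest probe sets. SKA2 minus SKA1 ranged from 1.87 to 2.37 in the KD arrays and from 0.42 to 0.77 in the NC arrays, so SKA1 fell by more, with a difference in change of 1.57 ± 0.18 (log2, standard error over arrays). SKA3 minus SKA1 differed in change by 0.84 ± 0.14 and SKA3 minus SKA2 by -0.73 ± 0.17. The second SKA1 probe set changed by -1.61, close to SKA3 at -1.62, while the mean of the SKA1 probe sets changed by -2.03. MIS12 minus DSN1 ranged from 0.52 to 0.61 in the KD arrays and from -0.91 to -0.77 in the NC arrays, a difference in change of 1.40 ± 0.053. In each of these 4 pairs the exact two-sided permutation test gave p = 0.1, the smallest that 3 against 3 arrays allow. Within the NDC80 complex, NUF2 minus NDC80 differed in change by 0.26 ± 0.13 and SPC25 minus SPC24 by 0.29 ± 0.23, with overlapping values in the groups (exact permutation p = 0.2 and 0.3). SPC24 minus NUF2 was the 1 pair of that complex whose values did not overlap, at -0.22 to 0.18 in the KD arrays and 0.24 to 0.46 in the NC arrays, a difference in change of -0.33 ± 0.14 (exact permutation p = 0.1, again the smallest possible). With the mean of each gene's probe sets the order of that pair turned, SPC24 changing by -1.31 and NUF2 by -1.96. The pairs given here are among 45 computed, and the p-values are unadjusted.

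Several genes are read by more than 1 probe set, which sample different parts or forms of the transcript. Of the 21 probe sets, 17 were lower in KD, 0 were higher and 4 did not pass, against 14.3% of 45278 probe sets called lower. The 5 genes NDC80, NUF2, SPC25, DSN1 and SKA3 rest on a single probe set each. That of DSN1 carries an x suffix, by which some of its probes can hybridise to other transcripts, and the brightest of MIS12 carries an s suffix, by which it can match transcripts of several genes.

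All 5 probe sets of SPC24 were lower, with changes of -2.29, -1.48, -1.04, -0.97 and -0.77. The one with the smallest change averaged 5.66 ± 0.13 in KD and 6.43 ± 0.14 in NC. Those at -1.04 and -0.77 carry an x suffix too, and those at -1.48 and -0.77 share a transcript record. KNL1 had 4 probe sets, of which 3 were lower, at -2.12, -1.24 and -0.69. The fourth KNL1 probe set read 2.60, 2.61 and 2.56 in KD, against 2.61, 2.79 and 2.55 in NC, near the lowest values of the table (2.05), and changed by -0.058 (limma, adjusted p = 0.700). Background was not measured per probe set, so a dim probe set gives no separate reading of its transcript.

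The second probe set of SKA1, also with an x suffix, averaged 3.09 ± 0.13 in KD and 4.70 ± 0.38 in NC, a change of -1.61 ± 0.17. The second of SKA2 changed by -0.58 ± 0.11, less than the first (-0.89 ± 0.13), and both passed. None of the 3 MIS12 probe sets passed, with changes of -0.30, -0.23 and -0.15 and adjusted p of 0.0606, 0.270 and 0.515 (limma over all probe sets). Averaging all probe sets of each gene, in place of taking the brightest, the change was -2.03 for SKA1, -1.31 for SPC24 and -1.02 for KNL1, so that NDC80, at -2.22, then changed more than SKA1, and the median over the 10 genes was -1.66.

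**Figure D3:**
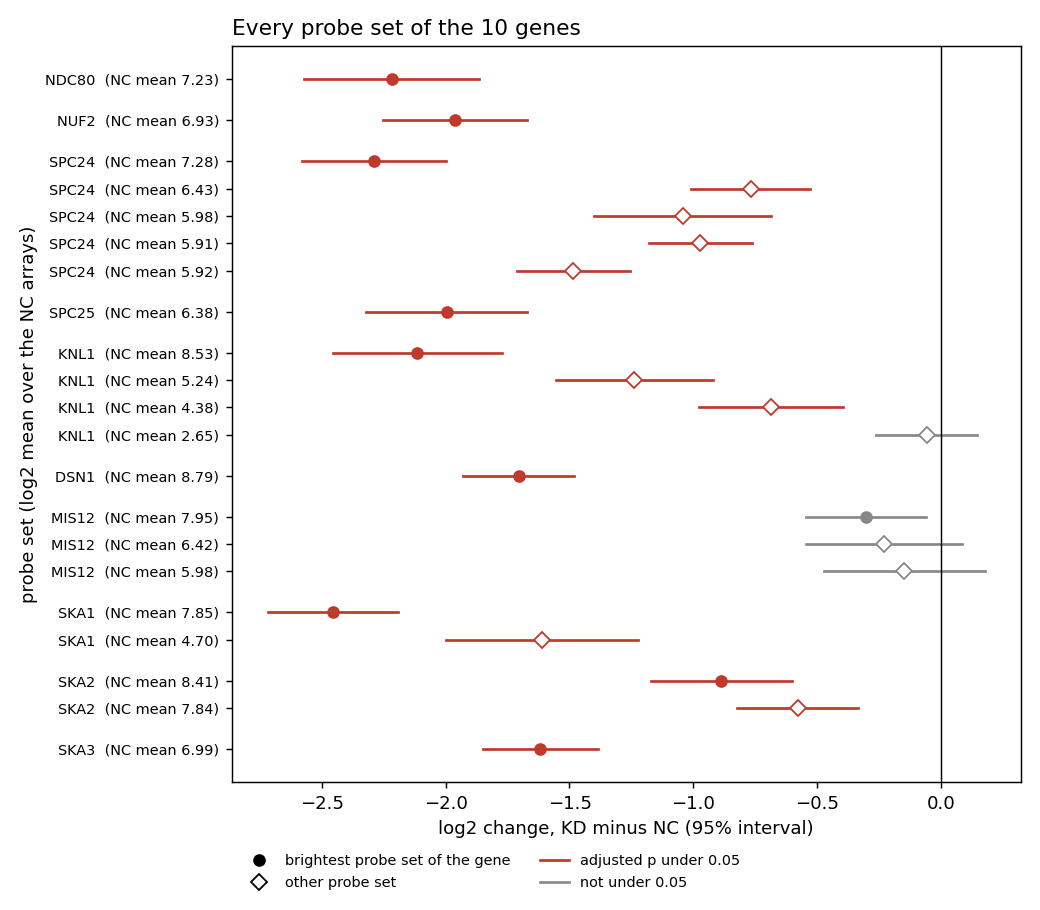
Log2 change, KD minus NC, with its 95% interval for each of the 21 probe sets, grouped by gene, with the NC mean of each probe set at the left. Filled circles are the brightest probe set of a gene and open diamonds the others. Those of MIS12 and the dimmest of KNL1 (grey) did not pass, and the rest lie between -2.45 and -0.58.

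Some of the 10 genes start head to head with a neighbour on the opposite strand, at a distance of up to 1000 bases between the RefSeq starts. The 5 such neighbours that were measured were chosen after the members' values were seen. METTL4, 52 bases from NDC80, changed by -0.54 ± 0.078 (limma, adjusted p = 0.000630), against -2.22 for NDC80. RGS5, a regulator of G-protein signalling 219 bases from NUF2, averaged 4.59 ± 0.025 in KD and 4.65 ± 0.25 in NC and did not pass (limma, adjusted p = 0.766), against -1.96 for NUF2. MRPL57, a mitochondrial ribosome gene 106 bases from SKA3, changed by -0.28 ± 0.072, against -1.62 for SKA3.

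DERL2, which encodes a protein of endoplasmic reticulum-associated degradation and starts 196 bases from the first MIS12 start, was higher. It read 9.88, 9.92 and 9.86 in KD, against 9.49, 9.28 and 9.51 in NC, and changed by 0.46 ± 0.088 (limma, adjusted p = 0.00298), against -0.30 for MIS12. PRR11, 560 bases from SKA2, read 5.33, 5.48 and 5.65 in KD, against 7.12, 6.71 and 6.78 in NC. Its change was -1.38 ± 0.13 (limma, adjusted p = 5.09e-05), against -0.89 for SKA2. The neighbours thus did not share 1 direction, and the difference between each neighbour and its partner was not tested.

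Other genes of the kinetochore and its partners were followed in lists given by name. Of 20 measured inner centromere and CENP-A loading genes, 19 were lower and 0 higher, with a median change of -1.28. These proteins form the base on which the MIS12 complex assembles. CENPH (-2.74 ± 0.13, 6.67-fold lower), CENPK (-2.03 ± 0.11) and CENPA, the centromeric histone (-2.02 ± 0.086), changed most. CENPT, which recruits the NDC80 complex directly, averaged 6.32 ± 0.10 in KD and 6.15 ± 0.29 in NC, a change of 0.17 ± 0.14 (limma, adjusted p = 0.439). CENPT was called higher without NC replicate 2, at 0.33 (limma, adjusted p = 0.0143).

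Of 8 genes of the outermost layer, the corona with its RZZ complex, 7 were lower and 0 higher, with a median of -1.70. KNTC1, the ROD subunit of that complex (-1.86 ± 0.11), SPDL1, a dynein adaptor (-1.84 ± 0.094), and CENPE, a kinetochore kinesin (-1.78 ± 0.073), changed most. ZW10, which also acts in membrane traffic, changed by -0.22 ± 0.10 (limma, adjusted p = 0.133) and was called lower without NC replicate 2 (adjusted p = 0.0185).

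The spindle assembly checkpoint list holds proteins recruited through KNL1 and also others that are not. In it, 7 of 9 genes were lower and 0 higher, with a median of -1.73. They were led by the kinases TTK (-2.39 ± 0.099) and BUB1 (-2.35 ± 0.14) and by BUB1B (-2.12 ± 0.094). MAD1L1 averaged 6.71 ± 0.034 in KD and 6.50 ± 0.042 in NC, a change of 0.21 ± 0.074 (limma, adjusted p = 0.0566), and was called higher without NC replicate 2 (adjusted p = 0.0346). All 7 genes of the chromosomal passenger complex, PLK1 and the shugoshins were lower, with a median of -1.74, led by CDCA8 (-2.17 ± 0.15), the kinase AURKB (-1.99 ± 0.082) and SGO2 (-1.75 ± 0.11). INCENP, the scaffold of the passenger complex, changed least there (-0.64 ± 0.080).

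On the microtubule side, of 9 end-binding partners 5 were lower and 1 higher, with a median of -0.26, where 17.6% of all genes were called higher. With treat against 0.2, 3 of them were lower, and 2 were higher with trend and robust fitting or with the mean of probe sets. KIF2C (-2.00 ± 0.083) and KIF18A (-1.60 ± 0.15), kinesins that shorten microtubules or limit their growth, and CDT1, a replication licensing factor that also binds the NDC80 complex (-1.23 ± 0.090), changed most. MAPRE1, which tracks growing microtubule ends in all cell cycle phases, changed by 0.17 ± 0.073 (limma, adjusted p = 0.106). MAPRE3 was the one called higher, at 0.70 ± 0.087. Among 7 tubulin genes 5 were lower and 1 higher, led by TUBB, the main beta-tubulin (-1.44 ± 0.073), TUBB4B (-0.96 ± 0.074) and TUBA1B (-0.89 ± 0.095), while TUBB6 averaged 10.8 in both groups. TUBA1A was the tubulin called higher, at 0.49 ± 0.098. Without probe sets that can hybridise to several transcripts, the tubulin counts became 1 lower and 0 higher. Genes with no other probe set were then not tested (16772 genes in all were, in place of 18244). How many of the tubulin genes remained was not counted.

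All 8 proliferation markers were lower, with a median of -1.47, and their mean level lay between 8.77 and 8.83 over the KD arrays and between 9.98 and 10.1 over the NC arrays. Examples are CCNA2 (-2.04 ± 0.092), MKI67 (-1.65 ± 0.078) and CCNB1 (-1.61 ± 0.077), and TYMS, a nucleotide synthesis enzyme, changed least (-0.38 ± 0.079). Their part in the changes of the kinetochore genes was not tested. Of 16 regulators that act on mitotic promoters, 10 were lower and 0 higher, with a median of -0.44. FOXM1 (-1.86 ± 0.14), MYBL2 (-1.70 ± 0.084) and E2F2 (-1.55 ± 0.11) changed most. The pocket protein gene RBL2 changed by -0.12 ± 0.16 (limma, adjusted p = 0.640), but it was called lower without NC replicate 2 (-0.31, adjusted p = 0.0414), and its sign turned without NC replicate 1. Over all genes 15.9% were called lower.

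**Figure D4:**
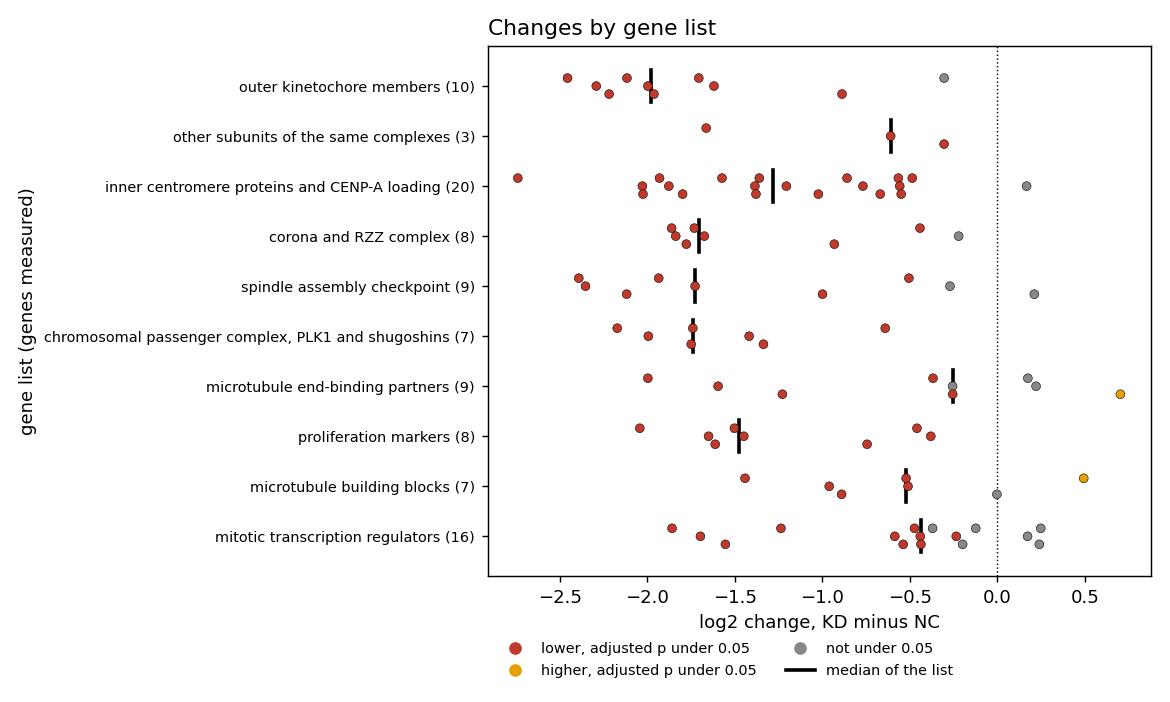
Log2 change, KD minus NC, of each measured gene by list (red, called lower; orange, called higher; grey, not called), with a bar at each list's median. The 10 kinetochore genes (top) have a median of -1.98, and the medians of the other 9 lists drawn lie between -1.74 and -0.26, with the cell type markers not drawn.

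The genes whose profile over the 6 arrays was closest to the mean profile of the 10 were found among all genes outside the group by the root mean square difference of values centred on each gene's mean. In order these were SLC7A5, an amino acid transporter (0.044), TOMM6, of the mitochondrial import pore (0.050), SPDL1 (0.050), CEP55, of late cytokinesis (0.058), and RMI1, which acts with the BLM helicase (0.063). SLC7A5 read 9.44, 9.42 and 9.34 in KD, against 11.24, 10.94 and 11.25 in NC, with NC replicate 2 lowest as in the brightest probe sets of the kinetochore genes. Among the 10, SKA3 (0.084) and DSN1 (0.090) lay closest to the mean profile and MIS12 (0.73) and SKA2 (0.46) farthest. Likeness over 6 arrays of 2 groups rests mostly on the size of the group difference.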

How the data were processed

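The authors' deposited table of 49395 probe sets on 6 Affymetrix arrays was used as log2 values, a scale taken from its range (2.05 to 14.3), since the summarisation, normalization and array-processing software are not given in the sources used here. The array medians lay between 5.49 and 5.55, so changes are read relative to the bulk of genes. Per the labels, biotin-labelled cRNA was made from total RNA, and samples were grouped and numbered by title. The source names of NC replicates 2 and 3 carry other cell line numbers than their characteristics, which say A549. Gene symbols came from the array platform's annotation (45278 with 1 symbol, 1333 with several, 2682 with none, 102 controls, left out).

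Each of 18244 genes was represented by its brightest probe set, with no filter on dim genes. R 4.3.3 with limma 3.58.1 fitted group as the only term (lmFit, then eBayes, two-sided) to the genes, and separately to the 45278 probe sets, with Benjamini-Hochberg adjustment over all genes or all probe sets, a threshold of 0.05 and 95% intervals. Residual degrees of freedom were 4, and those of the prior 4.67. In values simulated for KD against NC over 18244 genes, 4 of 67 genes with a log2 change of 0.3 were recovered, 67 of 67 at 1 and 66 of 66 at 2, and 8 of 18044 unchanged genes were called. Most genes were thus unchanged in that simulation, whereas 33.5% of genes were called in the measured data. Recovery of a change of 0.3 with as large a share of changed genes was not tested.

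The members, lists and motifs were chosen with earlier results of these data known. The text names MRPL35, every member, PMF1, NSL1 and ZWINT, from each other list the 3 largest called changes and the smallest change, the 5 genes closest in profile and the brightest gene of the marker lists. MAPRE3, TUBA1A, EPCAM, CDH1, CD14, PTPRC and the head-to-head neighbours were named after their values were seen. Promoter sequences are RefSeq's (GRCh38.p14). Figures were drawn with matplotlib 3.10.9. Alternatives were quantile normalization, median centring, trend and robust fitting, array weights, a replicate block, the mean of probe sets, leaving out x and s probe sets, dim genes or each array, treat against 0.2 and a threshold of 0.01. The pseudocount planned for linear values did not apply.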

Additional observations from a re-analysis of the deposited data

How the results depend on the processing

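The pseudocount alternative was not run, since the values are already log2. Over 16 alternatives the count of the 10 genes called lower stayed between 8 and 10, the count called higher at 0, and the probe sets called lower between 13 and 19. The 13 came from leaving out x and s probe sets. Fewer than 21 probe sets were tested there, and also where dim ones were left out. All changes kept their sign, and those of the genes other than MIS12 stayed past the threshold wherever the gene was tested. DSN1 has no probe set left without x and s suffixes, and SPC25 is not tested among the genes left without dim ones. MIS12, which did not pass with all arrays, passed with quantile normalization (-0.30, limma adjusted p = 0.0246), trend and robust fitting (-0.30, 0.0233), array weights (-0.39, 0.00644) and without dim genes (-0.30, 0.0285). Without single replicates its change ranged from -0.40 to -0.24, and it passed only without NC replicate 2. The median over the 10 genes was -1.66 with the mean of probe sets, and -2.10 to -1.90 without single replicates. The genes of the other lists, cell type markers left out, called higher numbered 2 with all arrays, 4 with trend and robust fitting, 4 with array weights, 5 with the mean of probe sets, 1 without x and s probe sets, and 2 to 4 without single replicates. With treat against 0.2, 1826 genes were lower and 1931 higher, against 2903 and 3207. The replicate block used numbers that the labels share between groups. Same-numbered arrays deviated together at 0.25, 0.26 and -0.096 (correlation over genes) for numbers 1, 2 and 3, so the numbers are not shown to pair the arrays. With the replicate block 9 of the 10 genes were lower, MIS12 stayed at -0.30 (limma adjusted p = 0.0591), and 3014 genes were lower and 3262 higher. Signal over background was not measured, which limits what the dim probe sets of KNL1 and SKA1 show.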
